A study of Mus musculus with 2 samples.

Results

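A list of 41 genes of DNA replication was followed across the cell classes of liver lesions in the Rb family Triple Knock Out mouse. The genes were listed by name and not picked by a measured value, though earlier results of these data were known. All 41 were among the 31053 features of both count matrices. They fall into 7 role groups, from origin licensing to chromatin assembly behind the fork. The readout was 10x 3' v3 sequencing of single cells in droplets, in which each captured RNA molecule is counted once by its unique molecular identifier (UMI).

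There were 2 libraries of YFP-positive liver cells, 1 per stage. The library of early lesions pooled 3 mice, whose barcodes cannot be told apart by mouse, and the library of macroscopic lesions came from lesions large enough to see, with no number of mice stated. Both groups carried the Rb family knockout and a YFP mark that, per the labels, shows recombination of the floxed alleles by Cre, and both were untreated. The labels give no unaffected control, no age, no strain and no promoter for Cre. With 1 library per stage no difference between stages has a replicate check, so no p-value is given, and all intervals are 95% intervals that cover counting error only. UMIs of Xist, the X-inactivation RNA, numbered 9925 in the early and 0 in the macroscopic library, and UMIs of Y-linked genes 0 and 723, so stage and sex of the animals cannot be told apart.

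DNA replication begins with licensing, in which the origin recognition complex, CDC6 and CDT1 load the MCM helicase ring onto origins. CDC45 and the GINS complex then switch the helicase on, polymerases copy the strands behind it, and the PCNA clamp, its loader and the lagging-strand enzymes keep synthesis going. Most of these genes are transcribed at the entry into S phase by E2F factors, which the Rb family proteins (Rb1, Rbl1, Rbl2) hold in check, and adult hepatocytes at rest normally transcribe them little.

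The barcodes were placed in classes by raw UMIs of a few gate genes, tried in a fixed order. These were Alb at 0.5% of UMIs or more for the hepatocyte class, Krt19 and Krt7 together at 2 or more UMIs for the duct class, and Clec4f, Cd5l and Marco at 3 or more for the Kupffer class, the resident liver macrophages. Gpnmb and Mmp12 at 3 or more gave the other macrophages, and Cd3e and Trbc2 at 2 or more the T cells. Of 3221 early barcodes 2459 were kept, with a median of 3047 UMIs, and of 256 macroscopic barcodes 208 were kept, with a median of 15714, and no barcode was shared by both libraries. Each class showed the markers of its name, with all 8 listed hepatocyte markers above 100 CPM (a gene's share of the UMIs of the class, on the usual CPM scale) in both hepatocyte classes and all 6 T cell markers above it in both T cell classes. The early hepatocyte class also held duct markers at a summed 7237 CPM, and 10 of its 62 barcodes passed the duct gate too. The Rb family genes were read at their 3' ends, which need not lie in the deleted parts, so their levels (Rb1 at 19.8 and 5.17 CPM, Rbl1 at 0 and 0.397 and Rbl2 at 11.3 and 4.17 in early and macroscopic hepatocyte barcodes) do not check the knockout. The 41 genes lie on 15 chromosomes, and 18 of them overlap an annotated gene on the opposite strand and 9 on the same strand. The minimum of 1000 UMIs, the YFP sort and the gates set which cells could enter each share given here.

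The replication list was highest in the hepatocyte class of both libraries. In the early library the summed level of the 41 genes was 3946 CPM (3827 to 4067) in the 62 hepatocyte barcodes. It was 1768 CPM (1698 to 1840) in 91 duct barcodes and 827 CPM (806 to 849) in 1852 Kupffer barcodes. The 71 T cell barcodes held 673 CPM (562 to 800) and the 195 other macrophages 450 CPM (418 to 483). None of the neighbours in this order had overlapping intervals except T cells with B cells (19 barcodes, 767 CPM, 540 to 1057) and B cells with Kupffer barcodes. The 31 barcodes of a neutrophil class, gated by S100a8 and S100a9, held 5 UMIs of the whole list, 107 CPM (34.6 to 249).

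In the macroscopic library the 86 hepatocyte barcodes held 3090 CPM (3042 to 3139). No macroscopic barcode passed the duct gate, and a count of 0 among 208 allows a share of up to 1.44% (3 counts of the total). The other classes there were small, with 19 T cell barcodes at 920 CPM (772 to 1089), 8 other macrophages at 940 CPM (816 to 1078), 5 B cells at 775 CPM (595.5 to 991.5) and 4 Kupffer barcodes at 1414 CPM (1189 to 1670). The T cell, B cell and other macrophage intervals overlapped one another, and all lay below that of the hepatocyte class. Each of these small classes was split into barcodes with 3 or more list UMIs in 2000 drawn at random and barcodes with fewer. The list itself made this split, so a higher level in the first part was fixed in advance. Among the other macrophages 1 of the 8 barcodes passed and held 4582 CPM, and the remaining 7 together held 419 CPM. Among the Kupffer barcodes deep enough to thin, 1 held 2891 CPM and the other 2 together 305 CPM, and among the B cells 2 held 1511 CPM and 3 held 252 CPM. The T cells were less uneven, with 3 barcodes at 1651 CPM and 16 at 658 CPM.

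**Figure D1:**
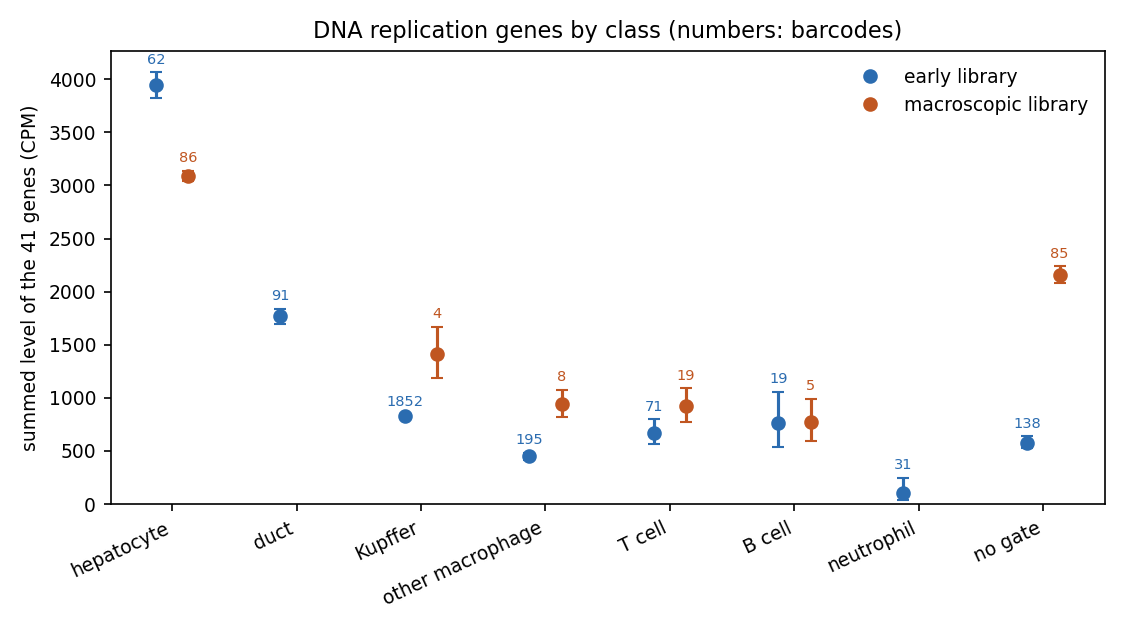
Summed level of the 41 DNA replication genes (CPM, vertical axis) in each gated class (horizontal axis), with the early library in blue and the macroscopic library in orange. Points are class sums, bars are exact Poisson 95% intervals of counting error, and the number above each point is its barcodes. The hepatocyte points, at 3946 and 3090 CPM, lie above every other class, and the macroscopic neutrophil class, a single barcode with no list UMI, is not drawn.

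Because the classes differ in depth, each barcode was also thinned at random to 2000 UMIs, and the share with 3 or more list UMIs was taken. In the early library 51 of 60 hepatocyte barcodes reached this (85.0%, 73.4 to 92.9), against 38 of 91 duct barcodes (41.8%, 31.5 to 52.6) and 169 of 1199 Kupffer barcodes (14.1%, 12.2 to 16.2). T cells gave 9 of 58 (15.5%, 7.35 to 27.4) and other macrophages 11 of 189 (5.82%, 2.94 to 10.2). Too shallow for thinning were 653 Kupffer, 13 T cell, 6 other macrophage and 2 hepatocyte barcodes and no duct barcode. Without thinning the shares were 95.2% for hepatocyte, 98.9% for duct, 25.8% for Kupffer, 28.2% for T cell and 64.6% for other macrophage barcodes, whose median depths were 16106, 11639, 2646, 2621 and 8094 UMIs. The macroscopic hepatocyte class gave 70 of 83 (84.3%, 74.7 to 91.4), or 98.8% unthinned at a median of 35882 UMIs, and the macroscopic T cells 3 of 19 (15.8%, 3.38 to 39.6).

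The shape of the distribution differed between classes as well as its level. The median early hepatocyte barcode held 6 list UMIs in 2000, with a range of 0 to 20, and the median duct barcode 2, with a range of 0 to 26. Kupffer, other macrophage and T cell barcodes all had a median of 1, but the highest Kupffer barcode reached 23 while the highest of the other 2 classes reached 4 and 7. Within the Kupffer class the list was concentrated in few barcodes: the highest 10%, 120 barcodes, held 54.2% of its thinned list UMIs. The highest 10% held 22.8% in the hepatocyte class and 37.9% in the duct class.

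The 169 list-rich Kupffer barcodes held 3210 CPM of the list, and the 1030 others 409 CPM. Mitotic genes, a separate list of 30 that the choice of barcodes did not use, stood at 2468 CPM in the first set and 112 CPM in the second. The list-rich Kupffer barcodes kept the gate genes of their class at 13687 CPM, against 13498 CPM in the others, and Alb at 207 CPM against 194. Both lists passed 3 UMIs in 53 of the 1199 thinned Kupffer barcodes, and 116 passed with the replication list alone. In the early hepatocyte class 27 of 60 barcodes passed with both lists and 24 with replication alone. Among the T cells no barcode passed the mitotic list (0 of 58, which allows up to 5.17%), although 9 passed the replication list, so 3 list UMIs in 2000 were also reached by barcodes under 3 mitotic UMIs.

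**Figure D2:**
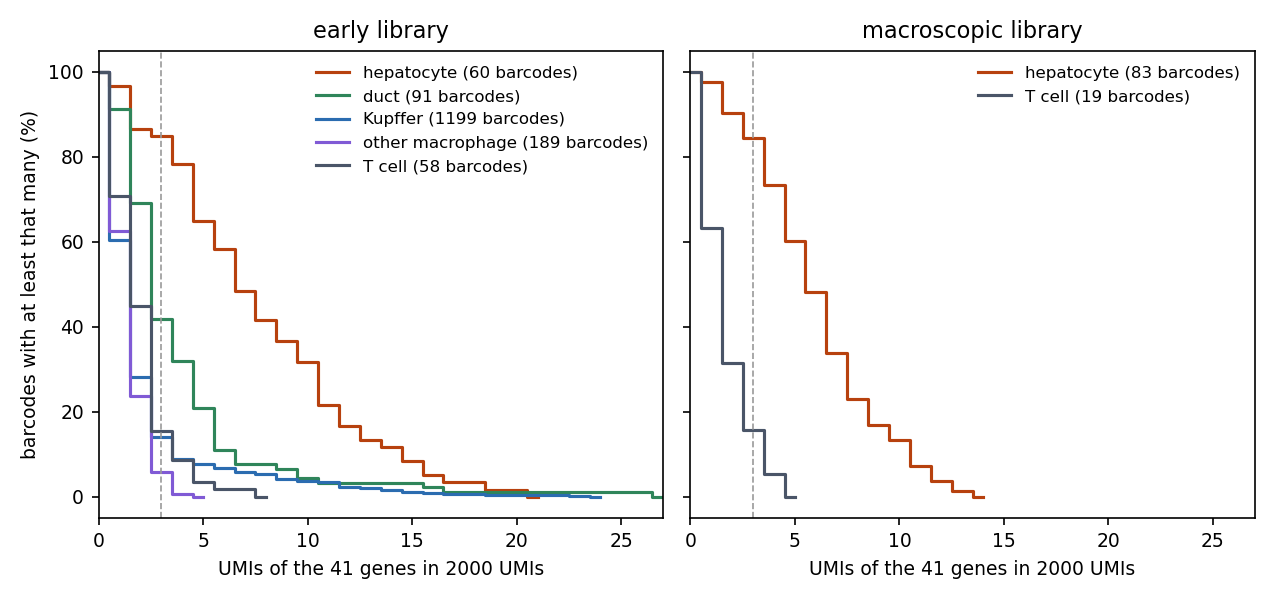
Share of barcodes (percent, vertical axis) that hold at least a given number of UMIs of the 41 genes in 2000 UMIs (horizontal axis), early library on the left and macroscopic library on the right, 1 line per class. The dashed line marks 3 UMIs. The hepatocyte lines cross it at 85.0% and 84.3%, and the Kupffer line, at 14.1% there, runs out to 23 UMIs.

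Gene by gene, the hepatocyte class stood first for nearly the whole list. Over the 5 classes of hepatocyte, duct, Kupffer, other macrophage and T cell barcodes, 40 of the 41 genes had their highest early level in the hepatocyte class, and all 41 were higher there than in the Kupffer class. In the small B cell class Rfc2 (8 UMIs) and Gins3 (1 UMI) stood higher still. The exception among the 5 classes was Slbp, which encodes the protein that binds the stem-loop of histone mRNAs, with 143.5 CPM (124 to 165) in duct and 140.2 CPM in hepatocyte barcodes. The order below was less uniform, with 35 genes higher in duct and 12 higher in T cells than in Kupffer barcodes. The share over all genes was not taken for these orders. The median gene was itself 0.24 higher in hepatocyte than in Kupffer barcodes on the log2 scale. Against the Kupffer class the summed level of the hepatocyte class was 4.77-fold higher (4.58 to 4.96). Of the 40 genes with enough UMIs to compare, 39 were at least 2-fold higher, where 29.8% of all 9762 genes compared were, and 0 were at least 2-fold lower, where 22.2% of all genes were. Orc1 stayed under the minimum of 10 CPM in every sum compared, so no ratio is given for it.

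The duct class stood between. Its summed level was 2.14-fold (2.04 to 2.24) that of the Kupffer class, with 23 of 38 genes higher by 2-fold or more and 1 lower by as much. Over all genes these shares were 38.0% and 15.4%, and the median gene was itself 0.60 higher on the log2 scale. Scaled so that the typical gene did not move, the ratio was 1.42 and 14 genes were at least 2-fold higher. The share over all genes was not taken at that scale. The hepatocyte class exceeded the duct class 2.23-fold (2.12 to 2.35), with 23 of 40 genes at least 2-fold higher, against 10.0% of all genes, and 0 at least 2-fold lower, against 23.4%.

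The other macrophages lay below the Kupffer class, and the T cells did so in the summed level but not in the thinned share. By raw CPM 12 of the 41 genes were higher in T cells than in Kupffer barcodes. For the other macrophages the summed level was 1.84-fold lower (1.70 to 1.99), with 18 of 30 genes at least 2-fold lower, against 20.3% of all genes, and 1 at least 2-fold higher, against 6.51%. For the T cells it was 1.23-fold lower (1.03 to 1.48), with 7 of 31 genes at least 2-fold lower, against 23.0% of all genes, and 4 higher, against 21.6%. The 7 lower genes were thus about the share of all genes, but depth limited this count. A T cell sum of 0 entered as 3 counts, at 5.22 CPM per UMI. Genes at 0 there and low in Kupffer barcodes, such as Rrm2 at 14.8 CPM, could therefore not be called lower. The thinned share of T cells, 15.5%, was not below the 14.1% of Kupffer barcodes. Counting T cell barcodes that had also passed an earlier gate moved the T cell ratio from 0.813 to 0.984.

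In the macroscopic library the hepatocyte class exceeded the T cells 3.36-fold (2.83 to 4.01). Of 39 genes 30 were at least 2-fold higher, against 25.2% of all genes, and 0 at least 2-fold lower, against 25.2%. Over the other macrophages it was 3.29-fold higher (2.86 to 3.79), with 30 of 39 genes at least 2-fold higher and 0 lower, against 30.7% and 18.2% of all genes. Counting also macrophages that had passed an earlier gate raised their level to 1472 CPM and lowered the ratio to 2.10.

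Promoters of the list were read from RefSeq (build GRCm38.p6), which gave a window of 300 bases, 250 before to 50 after the start, for 34 of the 41 genes. The windows were searched on both strands for 4 E2F-type words, TTTCCCGC, TTTCGCGC, TTTGCCGC and TTTGGCGC, which may overlap, and at least 1 was found in 14 of the 34 genes (41.2%), against 704 of 27025 genes with a window (2.61%). Within the bases before the start the counts were 9 genes (26.5%) and 2.16%. The word CCAAT was found in 21 of the 34 (61.8%) and in 41.1% of all genes. Windows around the word are shown for 5 genes in which it lies before the start and outside annotated exons, since these genes span the helicase ring, its loader, a polymerase and a chromatin factor, with the words in capitals. Those of Mcm5, Mcm6 and Pola1 lie outside annotated genes, and those of Cdc6 and Uhrf1 lie in an intron of the gene itself in GENCODE M21.
Mcm5, chr8:75109332-75109387, plus strand: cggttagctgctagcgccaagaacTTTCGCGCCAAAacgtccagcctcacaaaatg
Mcm6, chr1:128359784-128359839, minus strand: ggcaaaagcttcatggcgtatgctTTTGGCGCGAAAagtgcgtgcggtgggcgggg
Mcm6, chr1:128359721-128359776, minus strand: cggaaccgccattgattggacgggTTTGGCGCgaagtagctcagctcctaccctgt
Cdc6, chr11:98907989-98908044, plus strand: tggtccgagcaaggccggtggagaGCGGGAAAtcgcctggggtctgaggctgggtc
Pola1, chrX:93632262-93632317, minus strand: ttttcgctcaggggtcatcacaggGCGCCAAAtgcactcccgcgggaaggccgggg
Uhrf1, chr17:56304104-56304159, plus strand: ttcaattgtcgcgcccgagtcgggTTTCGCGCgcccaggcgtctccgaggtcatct
In Mcm5 and in the first Mcm6 window 2 words overlap, on opposite strands, so the capitals run on. A match is a string of letters and was not tested for binding. No binding was measured in these libraries.

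Licensing was the largest group, with 12 genes, and it held 28.9% of the list's UMIs in the early hepatocyte class, 31.2% in duct and 36.7% in Kupffer barcodes. The genes Mcm2 to Mcm7 encode the 6 subunits of the replicative helicase ring, and Mcm10 is not one of them. Mcm7 stood at 214.5 CPM in early hepatocyte, 88.4 in duct, 32.4 in Kupffer, 7.98 in other macrophage and 47.0 in T cell barcodes, and at 159.7 CPM in macroscopic hepatocyte barcodes. Mcm6 followed the same order among the first 4 classes, with 158 CPM, 103.7, 22.8 and 3.68, and 10.4 in T cells. Mcm5 differed in the duct class, where its 37.0 CPM was close to the 32.4 CPM of Kupffer barcodes, against 145.8 CPM in hepatocyte barcodes. Mcm2, Mcm3 and Mcm4 stood at 74.3, 123.2 and 58.3 CPM in the early hepatocyte class and at 16.3, 47.7 and 20.1 in Kupffer barcodes, ratios of 4.56, 2.58 and 2.90. Mcm4 did not separate hepatocyte from duct barcodes, with a ratio of 1.07 (0.754 to 1.52).

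Cdt1 and Mcm10, both counted in the licensing group here, differed least between hepatocyte and Kupffer barcodes. Cdt1, which brings MCM to origins, came first, at 89.4 CPM in hepatocyte and 49.2 in Kupffer barcodes, 1.82-fold (1.43 to 2.29). Its level in duct barcodes, 26.1 CPM, was 1.88-fold below the Kupffer level. Mcm10, a scaffold that joins the ring to the fork, was next at 2.02-fold (1.27 to 3.12), with 28 UMIs in hepatocyte and 88 in Kupffer barcodes and 6 in duct, the only one of 38 genes at least 2-fold lower in duct than in Kupffer barcodes. Gmnn encodes geminin, the inhibitor of CDT1, and stood at 174 CPM in hepatocyte, 73.2 in duct, 52.6 in Kupffer, 17.8 in other macrophage and 15.7 in T cell barcodes. Cdc6, with 29.2, 10.9 and 5.48 CPM in hepatocyte, duct and Kupffer barcodes, was at 5 UMIs in other macrophages and at 0 in T cells. Orc6, a subunit of the origin recognition complex, did not separate hepatocyte (39.5 CPM) from duct (38.4 CPM) barcodes, with a ratio of 1.03 (0.669 to 1.57), and both exceeded the 10.2 CPM of Kupffer barcodes. Orc1, the largest subunit of that complex, had 8, 5 and 7 UMIs in those classes and 30 in the macroscopic hepatocyte class.

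Cdc45, Gins1 and Gins2, which activate the helicase, followed the order of the summed list over hepatocyte, duct and Kupffer barcodes. Cdc45 stood at 37.6 CPM in hepatocyte, 15.2 in duct and 4.0 in Kupffer barcodes, with 3 UMIs in other macrophages and 0 in T cells. Gins2 had 84.7, 42.8 and 10.2 CPM in the first 3 classes and Gins1 52.7, 22.5 and 6.51. The 2 GINS subunits were 8.29-fold (5.99 to 11.5) and 8.08-fold (5.35 to 12.3) higher in hepatocyte than in Kupffer barcodes. Gins3 was sparse, with 13, 10 and 25 UMIs. In macroscopic T cells all 4 activators were at 0.

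Polymerases and primase held the most unequal gene of the list. Prim1 encodes the catalytic subunit of primase, which lays the RNA primers, and stood at 135.5 CPM in hepatocyte, 54.4 in duct and 4.74 in Kupffer barcodes, a 28.6-fold ratio of hepatocyte to Kupffer (19.4 to 43.3). Its partner Prim2, the other primase subunit, differed 2.43-fold (1.48 to 3.87), with 26 UMIs in hepatocyte and 68 in Kupffer barcodes. Pole, the leading-strand polymerase, was 15.5-fold higher (8.46 to 29.7), on 39 and 16 UMIs. Pola1, the catalytic subunit of polymerase alpha, was 2.14-fold higher (1.40 to 3.20), and its accessory subunit Pola2 2.86-fold. Pold1, the catalytic subunit of the lagging-strand polymerase delta, had 31.98, 19.6 and 7.40 CPM in hepatocyte, duct and Kupffer barcodes. Pole was at 0 in other macrophages and in macroscopic T cells, and Pold1 at 0 in early T cells.

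Among the clamp and loader genes the class order varied, and Rfc2 and Rfc4 stood higher in other macrophages than in Kupffer barcodes. Pcna, the sliding clamp, stood at 149.6 CPM in hepatocyte, 65.2 in duct, 70.6 in Kupffer, 36.9 in other macrophage and 36.5 in T cell barcodes. Rfc4, a subunit of the clamp loader, stood at 145.8, 54.4, 8.14, 14.1 and 5.22 CPM in the same order and was 17.9-fold higher in hepatocyte than in Kupffer barcodes (13.1 to 24.8). Eif4a2, which overlaps Rfc4 on the opposite strand, had another order, with 124.2 CPM in hepatocyte and 205.4 in Kupffer barcodes. Rfc3 and Rfc5, of the same loader, were 6.89-fold and 5.52-fold higher. Rfc2 stood at 126 CPM in hepatocyte, 116.7 in duct, 45.8 in Kupffer, 101.9 in other macrophage and 57.4 in T cell barcodes. Of the 30 genes compared it was the only one at least 2-fold higher in other macrophages than in Kupffer barcodes (2.23, 1.83 to 2.70), and the clamp and loader group held 39.1% of the list's UMIs there, against 14.7% in hepatocyte barcodes. Rfc2 overlaps Lat2, a myeloid and B cell adaptor gene, on the opposite strand. Lat2 stood at 184.8 CPM in early other macrophages, 145.1 in early B cells, 14.2 in Kupffer and 0 in hepatocyte and duct barcodes, and Rfc2 at 165.9 CPM in the B cells. The sources used here do not say whether strand entered the counting, and the part of Lat2 in the Rfc2 counts was not tested. In macroscopic other macrophages Lat2 stood at 146.7 CPM and Rfc2 at 55.0 CPM on 12 UMIs.

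The nucleotide supply genes took a larger part of the list in early hepatocyte barcodes than elsewhere, 25.1% of its UMIs against 17.0% in Kupffer, 16.2% in duct and 8.20% in other macrophage barcodes. Rrm2, the regulated subunit of ribonucleotide reductase, which makes deoxynucleotides, contributed more UMIs than any other gene there. It stood at 317 CPM in hepatocyte, 23.2 in duct and 14.8 in Kupffer barcodes and at 0 in other macrophages and T cells, 21.4-fold (17.1 to 27) above Kupffer and 13.7-fold (9.50 to 20.3) above duct. Rrm1, the large subunit of the same enzyme, differed 2.3-fold (1.79 to 2.92) between hepatocyte and Kupffer barcodes. Tyms, thymidylate synthase, was 18.9-fold higher in hepatocyte than in Kupffer barcodes (14.3 to 25.2), at 190 and 10.1 CPM, with 66.7 CPM in duct. Tk1, the salvage thymidine kinase, was lower in duct (23.9 CPM) than in Kupffer barcodes (47.8 CPM), against 165.6 CPM in hepatocyte barcodes. Dut, which removes dUTP from the pool, stood at 176.8, 111.6 and 24.6 CPM in those 3 classes and at 88.7 CPM in T cells, 3.61-fold above Kupffer (2.05 to 5.96) on 17 UMIs. Ung, the glycosylase that removes uracil from DNA, stood at 52.7, 17.4 and 5.04 CPM in hepatocyte, duct and Kupffer barcodes.

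The single-strand binding and lagging-strand genes fell from hepatocyte to duct to Kupffer barcodes. Among the chromatin genes, Chaf1a did not separate duct from Kupffer barcodes, with a ratio of 0.926 (0.483 to 1.65) on 14 and 74 UMIs. Clspn, with 8 UMIs in duct barcodes, was under the minimum level for a ratio between those classes. Lig1, the ligase that joins Okazaki fragments, stood at 181.5 CPM in hepatocyte, 80.5 in duct, 31.2 in Kupffer and 6.14 in other macrophage barcodes. Fen1, the flap nuclease, and Rpa2, a subunit of the single-strand binding complex, were 4.71-fold and 4.49-fold higher in hepatocyte than in Kupffer barcodes. Uhrf1, which recruits the maintenance DNA methyltransferase to new DNA, stood at 124.2, 31.9 and 13.8 CPM in hepatocyte, duct and Kupffer barcodes, with 2 UMIs in other macrophages. Chaf1b, a subunit of the histone chaperone CAF-1, was 13.5-fold higher in hepatocyte than in Kupffer barcodes (7.36 to 25.5), and Chaf1a, its large subunit, 4.29-fold. Clspn, the checkpoint adaptor claspin, stood at 51.7, 5.80 and 7.26 CPM in hepatocyte, duct and Kupffer barcodes and at 0 in other macrophages and T cells. Slbp kept 135.7 CPM in early and 163.6 CPM in macroscopic T cells, where it led the list in UMIs.

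**Figure D3:**
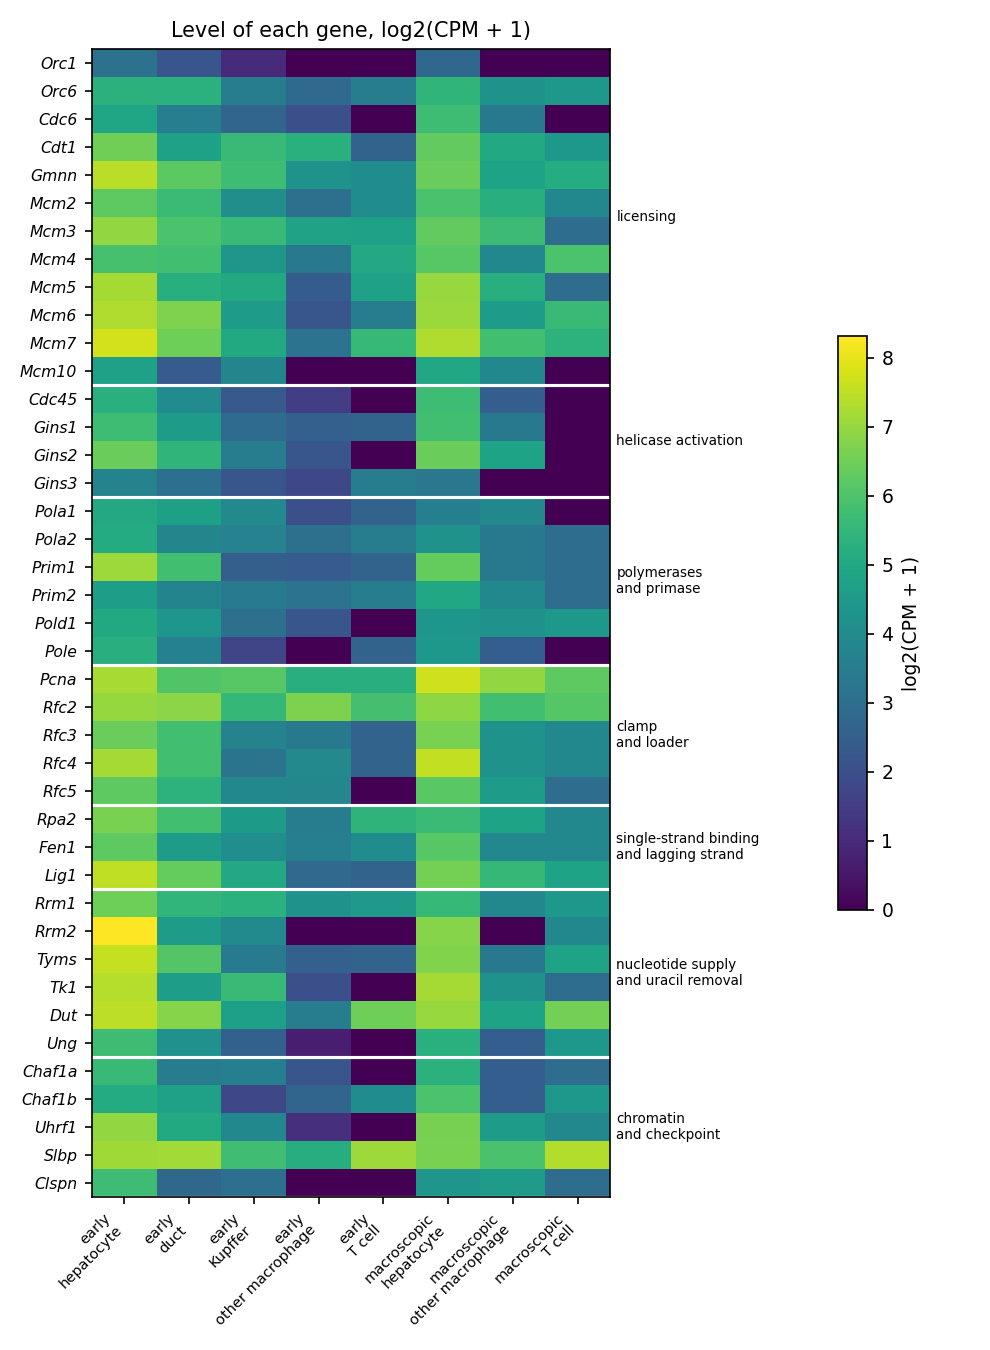
Level of each of the 41 genes (rows, by role group) in 8 class sums (columns), as colour on a log2(CPM + 1) scale from dark (0 UMIs) to yellow. The first column, early hepatocyte, holds the brightest cell of 40 rows among the 5 early classes drawn, and Rfc2 keeps a bright cell in early other macrophages at 101.9 CPM.

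Genes at 0 were spread over the low classes. In early other macrophages Orc1, Mcm10, Pole, Rrm2 and Clspn had no UMI, where 1 UMI corresponds to 0.614 CPM. In early T cells 13 genes had none, at 5.22 CPM per UMI, and in the early Kupffer and duct classes and both hepatocyte classes every gene had at least 1. In macroscopic T cells 9 genes had none, and in macroscopic other macrophages Orc1, Gins3 and Rrm2.

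Since few barcodes held most of the list in the Kupffer class, barcodes rich in mitotic genes were also compared with each other. Barcodes with 3 or more UMIs of the mitotic list after thinning numbered 28 in the early hepatocyte class and 60 in the Kupffer class, a comparison chosen after the values had been seen. Their replication levels lay close, at 4736 CPM (4568 to 4909) and 4019 CPM (3825 to 4220), a ratio of 1.18 (1.11 to 1.25). Of 39 genes 8 were at least 2-fold higher in the hepatocyte barcodes, against 24.1% of all genes, and 3 at least 2-fold lower, against 23.5%. The most unequal was again Prim1, at 152 CPM against 12.5 CPM, 12.2-fold (5.04 to 38.3). Chaf1b (6.12, 1.90 to 31.4, on 3 Kupffer UMIs), Rfc4 (5.23, 2.86 to 10.5), Tyms (3.33, 2.27 to 5.02) and Rrm2 (2.70, 2.07 to 3.56) were also higher, as were Gins1, Ung and Rfc3. Lower in the hepatocyte barcodes were Mcm10 at 36.4 against 142.5 CPM, Rrm1 at 117.2 against 244.9 CPM and Cdt1 at 98.2 against 197.5 CPM. The 9 duct barcodes that passed held 5677 CPM (5320 to 6052). Early barcodes with no UMI of the mitotic list after thinning still differed between classes. The replication list stood at 1677 CPM in 16 such hepatocyte, 1222 CPM in 74 duct and 497 CPM in 981 Kupffer barcodes. Among them 62.5%, 39.2% and 7.65% held 3 or more UMIs of the replication list after thinning. The part of the mitotic barcodes in the difference between the whole classes was not tested.

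Between stages the list was lower in macroscopic than in early hepatocyte barcodes by about as much as the typical gene. The ratio of summed levels was 0.783, or 1.28-fold lower (1.23 to 1.32), and the median gene of the list changed by -0.29 on the log2 scale, where the median over all genes was -0.27. Scaled so that the typical gene did not move, the ratio was 0.949. Of 40 genes 0 were at least 2-fold higher, against 8.73% of all genes, and 4 at least 2-fold lower, against 18.8%. With equal weight for each barcode 7 genes were at least 2-fold lower, and with barcodes that passed exactly 1 gate 9 were. The share over all genes was not taken in these settings, so 18.8% is no reference for them. The mitotic list moved alike, with a ratio of 0.810 (0.777 to 0.845).

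The genes at the lower end were Pola1, Rrm2, Clspn and Gmnn. Pola1 went from 31.0 to 10.9 CPM, 2.84-fold lower (1.79 to 4.45), on 33 and 55 UMIs. Rrm2 went from 317 to 111.8 CPM, 2.83-fold lower (2.47 to 3.25). Clspn went from 51.7 to 19.1 CPM and Gmnn from 174 to 83.4 CPM, 2.71-fold and 2.09-fold lower. Rpa2 and Lig1 followed, from 99.7 to 50.1 CPM and from 181.5 to 94.4 CPM. All 6 nucleotide supply genes and all 3 of the single-strand binding and lagging-strand group had a ratio below 1, as did 29 of the 40 genes compared. Most of all 9060 genes compared also lay below 1, with a median of -0.27 on the log2 scale, and their exact share was not taken.

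At the upper end no gene reached 2-fold. Chaf1b went from 33.9 to 61.2 CPM (1.81, 1.28 to 2.63) and Cdc6 from 29.2 to 52.4 CPM (1.80, 1.24 to 2.70). Pcna went from 149.6 to 206.6 CPM (1.38, 1.17 to 1.64) and led the list in UMIs at the macroscopic stage, followed by Rfc4, which went from 145.8 to 185.1 CPM (1.27, 1.07 to 1.52). Cdc45 stood at 1.40 (1.001 to 2.0) and Prim2 at 1.27 (0.833 to 2.0). The clamp and loader group went from 14.7% to 22.0% of the list's UMIs.

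**Figure D4:**
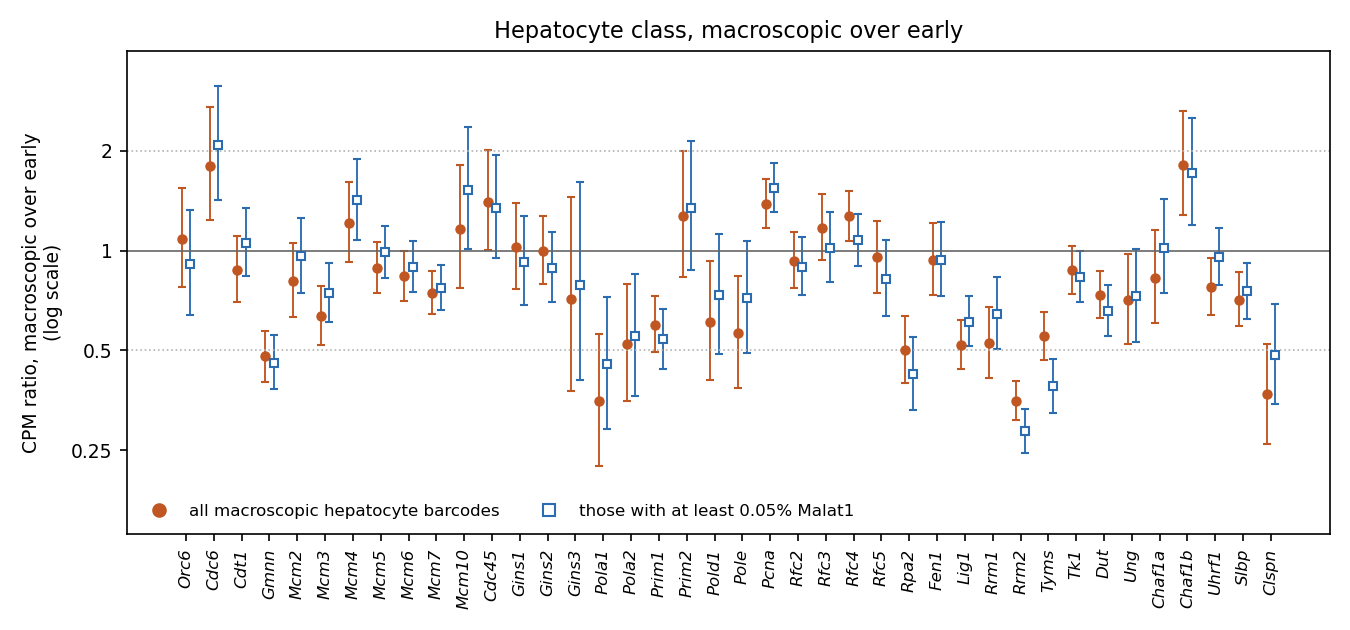
Ratio of CPM in the hepatocyte class, macroscopic over early (log axis), for the 40 genes compared, with exact 95% intervals of counting error. Filled circles use all 86 macroscopic barcodes and open squares the 40 with at least 0.05% Malat1. Rrm2, Pola1, Clspn and Gmnn lie below 0.5 on both, and Cdc6 passes 2 only on the open squares.

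The macroscopic hepatocyte class held barcodes of different make-up, which touch these values. Malat1, an RNA kept in the nucleus, made up at least 0.05% of UMIs in 40 of the 86 barcodes and less in 46. The 40 had a median of 116602 UMIs and 7.59% mitochondrial UMIs, and the 46 had 21981 UMIs and 0.0811%. The summed list hardly differed, at 3129 CPM (3072 to 3186) and 2977 CPM (2884 to 3073), a ratio of 1.05 (1.01 to 1.09). The thinned share with 3 or more list UMIs was 34 of 38 (89.5%, 75.2 to 97.1) and 36 of 45 (80.0%, 65.4 to 90.4).

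Single genes differed far more than the sum. Of 39 genes 14 were at least 2-fold higher in the 40 barcodes with more Malat1, where 44.5% of all genes were, and 1 at least 2-fold lower, where 2.83% were. Clspn stood at 25.1 CPM against 1.56 (16.1, 4.33 to 134.7, on 2 UMIs in the low set), Mcm10 at 40.0 against 3.12 (12.8, 4.91 to 47.7), Pola1 at 14.1 against 1.56 (9.06, 2.39 to 76.8) and Pole at 26.4 against 3.90 (6.77, 2.81 to 21.3). Tyms went the other way, at 74.1 against 195.6 CPM, and Rrm2 stood at 90.6 against 173.8 CPM. The ratio ran with transcript length. In the 13 genes with the shortest transcripts (1087 to 1975 bases) its median was 0.707, in the middle 13 it was 1.16, and in the 13 longest (3454 to 7163 bases) 3.66. Spearman's rho between ratio and length was 0.67 over 39 genes and 0.76 over all 8345 genes with a length, a description across genes of the same 2 sums, which share depth and preparation. The part of length in the ratios was not tested.

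**Figure D5:**
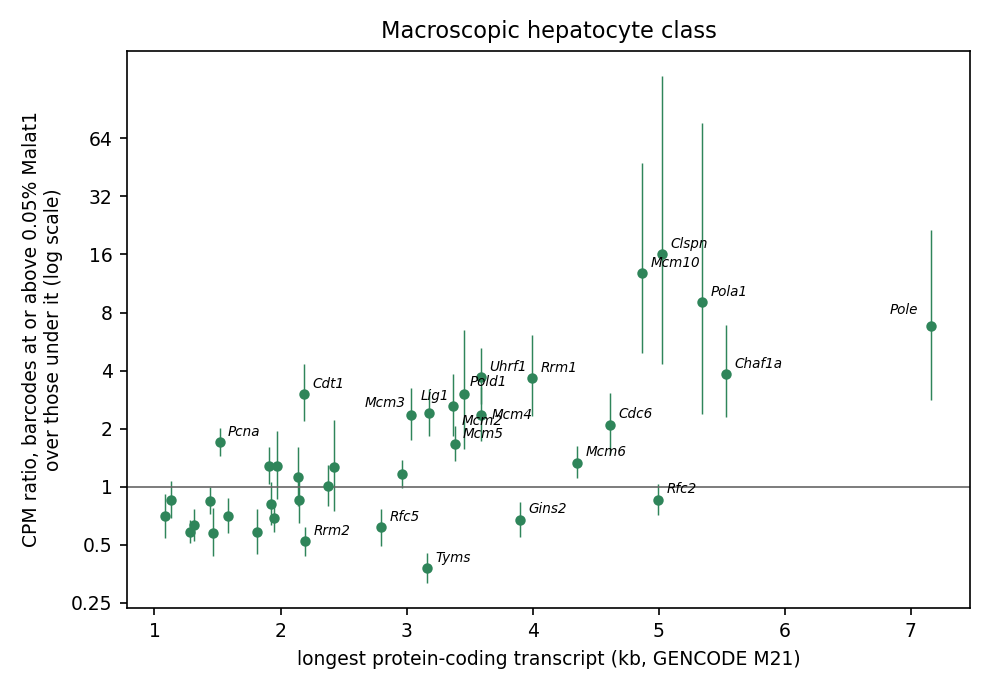
Ratio of CPM between macroscopic hepatocyte barcodes with at least 0.05% Malat1 and those with less (log axis), against the longest protein-coding transcript of each gene (kb), for 39 genes, with exact 95% intervals of counting error. Ratios run from 0.379 for Tyms to 16.1 for Clspn, and the 13 longest transcripts have a median of 3.66.

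With the 40 barcodes alone set against the early hepatocyte class, 6 of 40 genes were at least 2-fold lower, against 14.9% of all genes, and 1 at least 2-fold higher, against 10.3%. The 6 were Rrm2 (3.497-fold, 2.999 to 4.08), Tyms (2.56-fold), Rpa2 (2.35-fold), Pola1 (2.20-fold), Gmnn (2.18-fold) and Clspn (2.06-fold). Cdc6 was higher, 2.08-fold (1.42 to 3.13), at 60.5 against 29.2 CPM. The ratio of Pcna rose to 1.54 (1.30 to 1.84). Rrm2, Pola1, Gmnn and Clspn were thus at least 2-fold lower in the macroscopic class with and without the barcodes low in Malat1. This is no separate check, since the 40 barcodes are part of the 86. They held 53 of the 55 UMIs of Pola1 and 94 of the 96 of Clspn. The 6 lower genes were also about the share over all genes.

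A second list of 40 replication genes, not among the 41, was also higher in hepatocyte than in Kupffer barcodes but differed in the T cells. In early hepatocyte over Kupffer barcodes 30 of 38 were at least 2-fold higher, against 29.8% of all genes, and 0 lower, against 22.2%, with a summed ratio of 2.68 (2.55 to 2.81), below the 4.77 of the 41 genes. In T cells over Kupffer barcodes its summed ratio was 1.32 (1.14 to 1.53), where that of the 41 genes was 0.813. In macroscopic hepatocyte barcodes over T cells 12 of 39 of its genes were at least 2-fold higher and 4 lower, against 25.2% of all genes in each direction. Between stages 5 of its 39 genes were at least 2-fold lower, against 18.8% of all genes, and 1 higher, against 8.73%.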

How the data were processed

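Single-cell RNA sequencing (10x 3' v3) was done on YFP-positive liver cells, 1 library per stage. Per the file headers, the authors deposited unnormalized UMI counts for each pair of gene and barcode. Named in the submitters' processing notes, with no role, are Seurat 2.3.0, Cell Ranger 3.0.2 and mm10. The authors' filtering of barcodes, the annotation and the use of strand are not given in the sources used here.

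Barcodes were kept with at least 1000 UMIs, 300 genes and at most 25% mitochondrial UMIs, which removed 656 and 104 early and 24 and 20 macroscopic barcodes in turn. Scrublet, run per library in Scanpy 1.11.5, called 2 early and 4 macroscopic barcodes doublets. These were left out, and so small a number leaves room for unseen doublets. In the early library 112 kept barcodes passed 2 or more gates and in the macroscopic library 4, and each counted in the first gate passed, in the order hepatocyte, duct, Kupffer, other macrophage, T cell. Neutrophils (S100a8 and S100a9 at 1% of UMIs) and B cells (Cd79a and Ms4a1 at 2 UMIs) came after these.

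Counts were summed per class and given as CPM, with exact Poisson intervals, shares with exact Clopper-Pearson intervals and ratios with exact conditional binomial intervals (SciPy 1.17.1), at 95% and for counting error only. For shares of 0 the bound printed corresponds to 3 counts. Depth sets their width: 1 UMI of the hepatocyte class was 0.941 CPM (early) or 0.199 CPM (macroscopic). A gene was compared where it had at least 10 CPM in 1 of the 2 sums and 20 UMIs in both together, and a sum of 0 was replaced by a floor of 3 counts. Thinning drew 2000 UMIs per barcode without replacement. The ratio code was tested on simulated data with known fold changes. No test was run, because barcodes of 1 library are not replicates. Alternatives changed the filter, doublets, gates, weighting, Malat1 content, scaling, thinning and members summed.

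All 41 genes are accounted for. Per comparison the genes named are, by rule, the 6 highest and 6 lowest ratios among genes compared, and per class the 5 genes with most UMIs and those at 0. Other values are given to describe each gene. The genes, gates and lists were chosen with earlier results of these data known. The comparison by mitotic genes, the Malat1 split by gene, transcript length (longest protein-coding transcript, GENCODE M21) and the levels of Lat2 and Eif4a2 were added after the data had been seen.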

Additional observations from a re-analysis of the deposited data

Results flagged for a closer look

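The list also had UMIs in barcodes outside the classes compared. In the early library 138 barcodes that passed no gate held 579 CPM (526 to 637), above the limit of 4.04 CPM that a count of 0 allows. The 760 early barcodes that failed the filter held 674 CPM (617 to 734), at a median of 768 UMIs. In the macroscopic library 85 barcodes that passed no gate held 2158 CPM (2079 to 2240), above every gated class there but the hepatocyte class. The 44 macroscopic barcodes that failed the filter held 765 CPM (668 to 872).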

How the results depend on the processing

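Across 41 values and 15 alternatives 358 values were recomputed. Of these 284 stayed within the interval of the reported value (for counts of genes, within 1.5 times it) and 74 moved. A change of direction was defined only for the ratios of summed levels, and 0 of these ratios changed direction. The number of genes highest in early hepatocyte barcodes, among the 5 classes of the gates, stayed within 1.5 times 40 in every setting. That is a wide bound for a count out of 41 genes. No paired analysis was possible because each stage has 1 library and the labels give no replicate numbers, and no library could be left out. Thinning to 5000 UMIs gave no value for early T cells. Counts of genes at least 2-fold higher or lower are given below without the share over all genes in the same setting.

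The shares follow the thinning depth by construction. At 1000 UMIs they were 58.1% for early hepatocyte, 20.9% for duct, 6.16% for Kupffer, 0.513% for other macrophage, 1.41% for T cell and 52.3% for macroscopic hepatocyte barcodes. At 5000 UMIs they were 96.6%, 83.5%, 45.6% and 38.4% for the first 4, 100% for macroscopic hepatocytes, 71.4% for macroscopic other macrophages and 87.5% for macroscopic T cells. A minimum of 2 list UMIs gave 69.2% for duct, 28.1% for Kupffer, 23.8% for other macrophage and 44.8% for early T cell barcodes. A minimum of 5 gave 65.0% for early hepatocyte, 20.9% for duct, 7.67% for Kupffer, 0% for other macrophage, 3.45% for early T cell, 60.2% for macroscopic hepatocyte and 0% for macroscopic T cell barcodes.

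With equal weight per barcode the levels were 3453 CPM for early hepatocyte, 1559 for duct, 738 for Kupffer and 2794 for macroscopic hepatocyte barcodes. The ratio of other macrophages to Kupffer barcodes was then 0.622, and the genes at least 2-fold lower were 7 between stages, 2 for duct over Kupffer and 1 for macroscopic hepatocyte over other macrophage barcodes, while 2 were higher for T cells over Kupffer.

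Without Pcna, Rfc2 and Mcm7, the 3 genes with most UMIs, the levels were 3456, 1498, 679, 303 and 532 CPM for early hepatocyte, duct, Kupffer, other macrophage and T cell barcodes, and 2606, 706 and 736 CPM for macroscopic hepatocyte, other macrophage and T cell barcodes. The ratios were then 0.754 between stages, 5.09 for hepatocyte and 0.446 for other macrophage over Kupffer barcodes, where 0 genes were at least 2-fold higher.

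Only barcodes that passed exactly 1 gate gave 4324 CPM and 93.8% for early hepatocyte and 875 CPM for Kupffer barcodes, ratios of 0.712 between stages and 2.40 for hepatocyte over duct, 9 genes at least 2-fold lower between stages and 2 for duct over Kupffer. Counting a barcode in every class it passed gave 825 CPM for early T cells and 1472 CPM for macroscopic other macrophages. The ratios were then 2.03 for duct and 0.984 for T cells over Kupffer and 2.10 for macroscopic hepatocyte over other macrophage barcodes, with 2 genes at least 2-fold lower for duct and 0 higher for other macrophages over Kupffer.

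Median-of-ratios scaling moved all genes by between -0.39 and 0.59 on the log2 scale. It gave ratios of 0.949 between stages, 3.92, 1.42 and 0.668 for hepatocyte, duct and other macrophage over Kupffer, 2.92 for hepatocyte over duct and 2.86 for macroscopic hepatocyte over other macrophage barcodes. Genes at least 2-fold higher were then 2 between stages, 14 for duct and 2 for other macrophage over Kupffer, and genes at least 2-fold lower 3 for duct and 11 for T cells over Kupffer. At least 2000 UMIs and 500 genes gave 861 CPM for Kupffer barcodes and 2 genes lower for duct over Kupffer. With no minimum level 2 genes were higher in other macrophages than in Kupffer barcodes. Only barcodes with at least 0.05% Malat1 gave 1 gene at least 2-fold higher between stages.

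The limits are 1 library per stage, stage and sex that cannot be told apart, and few UMIs in the small classes: the early T cell and macroscopic T cell and other macrophage sums rest on 129, 135 and 205 list UMIs, so single genes there have wide intervals.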

Other observations

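The 85 macroscopic barcodes that passed no gate were of different kinds. In 43 with at least 0.05% Malat1 the list stood at 1234 CPM (1157 to 1314), with endothelial markers at 2741 CPM, fibroblast markers at 2247 CPM and hepatocyte markers at 715 CPM. In the 42 with less, the list stood at 3569 CPM (3407 to 3736), above the 3090 CPM of the hepatocyte class. Those 42 held hepatocyte markers at 15342 CPM and Alb at 1390 CPM, under the 0.5% gate, with endothelial markers at 36.9 CPM and 0.0408% mitochondrial UMIs. The level of the list in the macroscopic hepatocyte class thus leaves out barcodes with hepatocyte markers and a higher level of these genes.

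Replication and mitotic transcripts did not always go together in macroscopic hepatocyte barcodes. Of 83 thinned barcodes 39 reached 3 UMIs of both lists, 31 of the replication list alone and 11 of the mitotic list alone. In the early hepatocyte class 1 of 60 barcodes reached the mitotic list alone, and in the Kupffer class 7 of 1199. The 13 macroscopic barcodes under 3 replication UMIs, a choice made on the list itself, held it at 1712 CPM, against 3207 CPM in the other 70. Mitotic genes stood at 4561 CPM in the 13 and 1931 CPM in the 70. Mki67 and Top2a did not share this, at 105 against 116 CPM and 118 against 171 CPM. Malat1 had a median of 0.0048% of UMIs in the 13 and 0.0169% in the 70, and its part in these values was not tested.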
